A study of Homo sapiens with 6 samples.

Results

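DLX2, DLX3 and DLX4 are 3 of the 426 genes in the authors' deposited table of genes that differ between MKN28 cells with and without knockdown of VPS35. They were chosen by name from that table, so their presence there and their direction come from the same contrast that is described below, and no test of it is made here. MKN28 is a human gastric cancer line, and VPS35 is the core subunit of retromer, a complex that recycles membrane proteins from endosomes. Of the 6 RNA samples, 3 carried a control vector and 3 carried short hairpin RNA against VPS35 (shVPS35). The series calls them biological replicates. The labels do not say how many hairpins or clones were used, and with a single knockdown group an effect of the hairpin itself and of VPS35 loss cannot be told apart.

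DLX genes encode homeodomain transcription factors related to Distal-less of Drosophila, and they bind AT-rich DNA. Mammals carry them in pairs that face each other on the chromosome. They are best known from development, where DLX2 acts in forebrain interneurons and the branchial arches, DLX3 in epidermis, hair, teeth, bone and placenta, and DLX4 in placenta and blood cells. Bone morphogenetic proteins (BMPs) are known inducers of several DLX genes in ectoderm and bone-forming cells.

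DLX4 and DLX3 are neighbours on chromosome 17 (GRCh38, GENCODE 29). DLX4 (ENSG00000108813) spans chr17:49968970-49974959 on the plus strand and DLX3 (ENSG00000064195) spans chr17:49990005-49995224 on the minus strand. The genes point towards each other with 15045 bases between them. DLX2 (ENSG00000115844) lies at chr2:172099439-172102900 on the minus strand, 9761 bases from DLX1 on the plus strand. So the chromosome 17 pair was listed whole, the chromosome 2 pair was listed for DLX2 alone, and neither gene of the DLX5 and DLX6 pair on chromosome 7 was listed. The levels of DLX1, DLX5 and DLX6 are not analysed here, since absence from the table can mean that a gene went untested or fell short of a threshold. Within 1000000 bases on either side, 0 of 39 other protein-coding genes around DLX3 and DLX4 and 0 of 13 around DLX2 were listed. Since 2.65% of all genes tested were listed, a count of 0 among so few genes is near the background and says little about either locus.

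**Figure D1:**
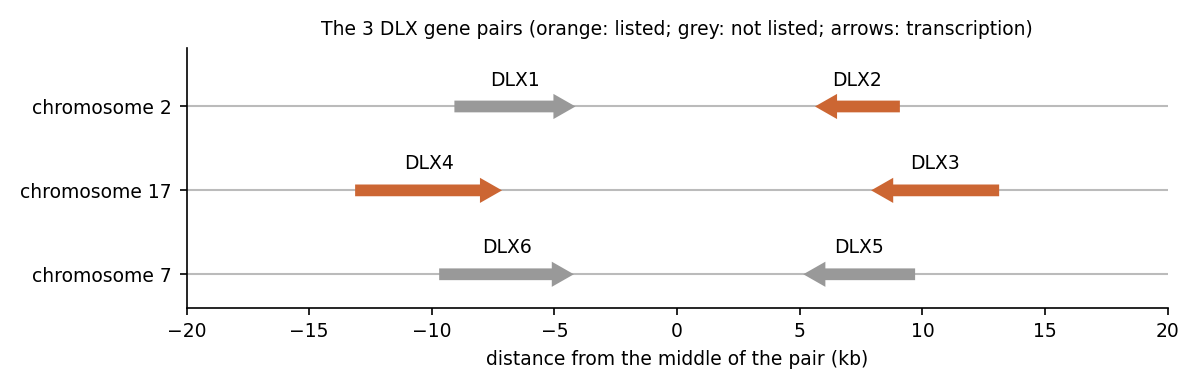
Map of the 3 DLX gene pairs to scale, with distance in kilobases from the middle of each pair on the x axis and 1 line per chromosome. Arrows give the extent and direction of each gene, orange for listed and grey for not listed. Both genes of the chromosome 17 pair are orange, with 15045 bases between them.

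The coding sequences of DLX2 and DLX3, whose ratios of group means were the largest of the 3, are shown over 60 codons. This stretch is one in which they are most alike, and it overlaps the homeobox, the part that encodes the DNA-binding domain. The exact ends of the homeobox were not mapped here. The sequences are from GENCODE 29 transcripts. Each is written 5′ to 3′ on the coding strand, with capitals where both genes have the same base.
DLX2: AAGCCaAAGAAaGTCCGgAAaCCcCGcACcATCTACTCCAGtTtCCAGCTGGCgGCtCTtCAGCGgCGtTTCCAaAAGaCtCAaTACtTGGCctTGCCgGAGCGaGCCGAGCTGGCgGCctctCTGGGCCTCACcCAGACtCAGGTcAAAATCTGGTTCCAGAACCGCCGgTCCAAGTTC
DLX3: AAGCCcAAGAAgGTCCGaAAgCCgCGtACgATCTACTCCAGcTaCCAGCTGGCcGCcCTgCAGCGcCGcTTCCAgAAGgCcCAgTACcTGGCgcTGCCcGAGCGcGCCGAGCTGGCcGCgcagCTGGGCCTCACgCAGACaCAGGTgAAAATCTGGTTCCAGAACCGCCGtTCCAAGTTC
Although the genes lie on different chromosomes, 148 of the 180 bases were the same. Of the 60 codons, 31 were identical, 26 differed without changing the residue and 3 changed it. The stretch covers codons 148 to 207 of DLX2 and 125 to 184 of DLX3, and 6 windows of this length were equally alike. In both genes it is split between exons 2 and 3 of a transcript with 3 exons, with 144 bases in exon 2 and 36 in exon 3. It spans chr2:172100909-172101605 for DLX2 and chr17:49991829-49993543 for DLX3, intron included, on the minus strand of GRCh38. The longest run of identical bases anywhere in the coding sequences of DLX2 and DLX3 was 23. The labels give no read length, and untranslated regions were not compared.

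VPS35, the target of the hairpin, checks the labels. Vector samples had 64.4, 64.3 and 67.2, and knockdown samples had 12.9, 15.6 and 11.8. The values here and below are the deposited expression values, whose unit the header does not name and which carry no read depth.

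All 3 DLX genes were higher in the VPS35 knockdown. The ratio of group means was 5.70 for DLX3, 4.15 for DLX2 and 2.79 for DLX4. In each gene the lowest shVPS35 sample was above the highest vector sample, as in 95.3% of the 190 listed genes that rose. In bulk RNA, more RNA per cell and more cells with the RNA cannot be told apart. The authors called 190 of 16063 genes higher in shVPS35 cells, which is 1.18% of the genes tested, and 3 of the 6 DLX genes are among them. The members were picked from those calls, so nothing is read from the count.

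DLX3, whose mutation in people causes tricho-dento-osseous syndrome of hair, teeth and bone, had expression values of 1.53, 0.80 and 1.35 in the vector samples. In the shVPS35 samples it had 6.25, 7.50 and 7.24. Vector sample 2 was the lowest of all 6 and shVPS35 sample 2 the highest, and the groups were far apart. The means were 1.23 ± 0.380 and 7.00 ± 0.660 (SD, n = 3 per group). The difference of mean log2(value + 1) was 1.86 ± 0.16 (SE). This scale adds a pseudocount of 1 to each value, which understates the change of low genes. The authors' deposited table gives DLX3 a log2 fold change of 2.49 and an adjusted p of 4.3e-31.

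DLX2, a regulator of interneuron and craniofacial development, had 1.16, 1.19 and 1.50 in vector cells. After knockdown the samples had 5.07, 5.46 and 5.44. It was the most even of the 3 genes after knockdown, with a coefficient of variation of 4.13% against 9.43% for DLX3 and 11.2% for DLX4. The means were 1.28 ± 0.188 and 5.32 ± 0.220 (SD, n = 3 per group), and the difference of mean log2(value + 1) was 1.47 ± 0.07 (SE). The lowest shVPS35 sample was 3.38 times the highest vector sample. In the authors' deposited table the log2 fold change of DLX2 is 2.03, with an adjusted p of 8.0e-20.

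DLX4, also known as BP1 and best known from placenta and blood cells, had 2.97, 3.81 and 2.95 in the vector samples. Its shVPS35 samples had 9.07, 10.1 and 8.04. Sample 2 was the highest within each group, and the lowest shVPS35 sample was 2.11 times the highest vector sample. The means were 3.24 ± 0.491 and 9.06 ± 1.02 (SD, n = 3 per group), with a difference of mean log2(value + 1) of 1.25 ± 0.13 (SE). The authors' deposited table gives DLX4 a log2 fold change of 1.47 and an adjusted p of 9.8e-15. This is the closest of the 3 to the authors' limit of 1, and the smallest log2 fold change of any gene that rose was 1.01.

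**Figure D2:**
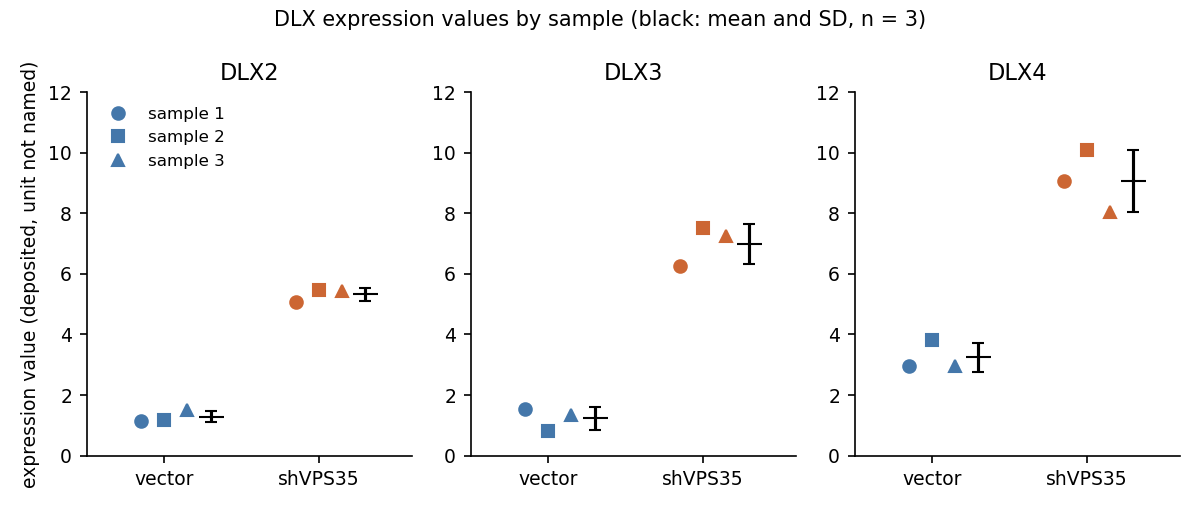
Expression value as deposited (y axis, unit not named, starting at 0) of DLX2, DLX3 and DLX4 in each vector sample (blue) and shVPS35 sample (orange), with marker shape for the sample number. Black marks give the mean and SD of 3 samples. The 2 groups do not overlap in any of the 3 genes, as in 95.3% of the 190 listed genes that rose. DLX4 lies between 8.04 and 10.1 in shVPS35 samples.

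By the ratio of group means and by the difference of mean log2(value + 1), the change was ordered DLX3, DLX2, DLX4. By the plain difference of group means the order was another, with 5.82 for DLX4, 5.77 for DLX3 and 4.04 for DLX2. The steps between the genes are given with their errors and without a test. On the log2(value + 1) scale the difference of DLX3 exceeded that of DLX2 by 0.38 ± 0.15 and that of DLX4 by 0.61 ± 0.26 (SE, n = 3 per group). DLX2 exceeded DLX4 by 0.23 ± 0.16. With a pseudocount of 5 the order of the last pair turned, with differences of 0.72 for DLX2 and 0.77 for DLX4.

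The balance among the DLX transcripts was also compared within each sample. The DLX4 value divided by the DLX3 value gave 1.94, 4.76 and 2.19 for vector and 1.45, 1.34 and 1.11 for shVPS35. All 3 shVPS35 samples were therefore below all 3 vector samples, and the vector mean of 2.96 rests largely on vector sample 2, where DLX3 was at its lowest. The ratio of DLX4 to DLX2 was 2.58 ± 0.618 in vector and 1.70 ± 0.197 in shVPS35 samples (SD, n = 3 per group), again without overlap. For DLX2 over DLX3 the groups overlapped, with 0.758, 1.49 and 1.11 in vector and 0.811, 0.728 and 0.751 in shVPS35 samples. These ratios compare a gene pair between samples and do not rank the genes by abundance.

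The place of the DLX genes among the listed genes that rose depended on the measure. Of the 141 listed genes that were higher in shVPS35 cells and reached a mean of at least 1 in the higher group, DLX3 had the 9th largest difference on the log2(value + 1) scale. DLX2 was at place 21 and DLX4 at place 38. Leaving out single samples moved the place of DLX3 to 4 (without vector sample 1) or 5 (without vector sample 3), and that of DLX2 to 13 (without vector sample 3). A pseudocount of 5 moved DLX3 to place 23 and DLX2 to place 49. By the authors' deposited table of log2 fold changes, 29 of the 190 genes that rose had a larger change than DLX3, 52 a larger one than DLX2 and 98 a larger one than DLX4. The median of these changes, from the authors' deposited table, was 2.03 over the 3 DLX genes and 1.50 over all genes that rose. Separation of the groups was common among them, since all shVPS35 samples lay above all vector samples in 95.3% of the 190.

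**Figure D3:**
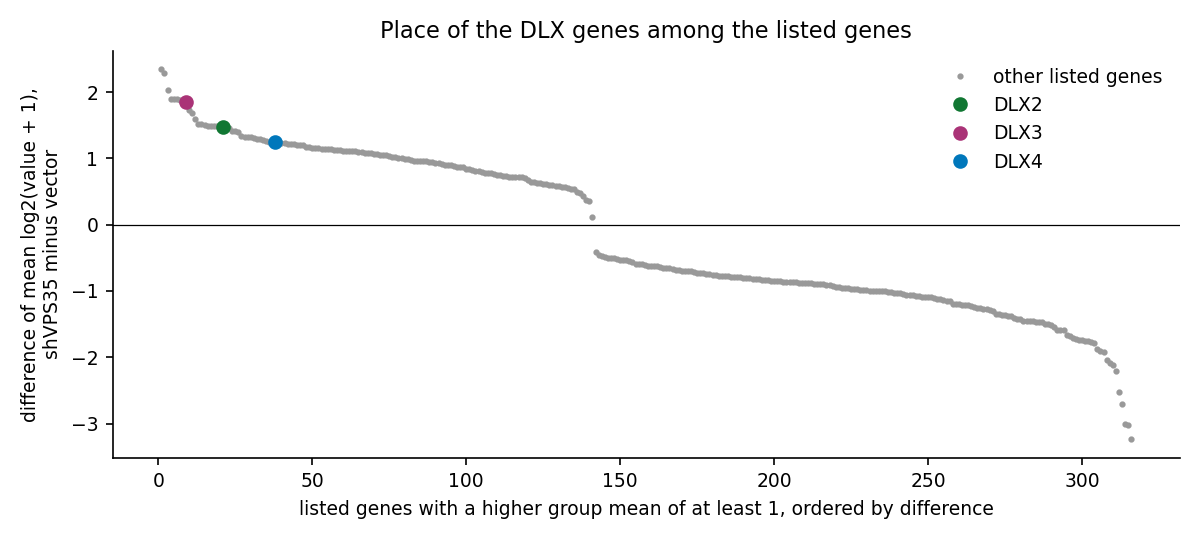
Difference of mean log2(value + 1), shVPS35 minus vector (y axis), for the listed genes that reach a mean of at least 1 in the higher group, ordered from the largest rise to the largest fall (x axis). Grey points are other listed genes and coloured points the DLX genes, which stand at places 9, 21 and 38.

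The genes most like each DLX gene were found by the root mean square difference of log2(value + 1), after subtraction of the mean of the vector samples, over the 6 samples. Among 315 other listed genes, those nearest to DLX2 were COL15A1, a basement membrane collagen, at a distance of 0.0990, PTGS1, which encodes cyclooxygenase 1, at 0.103, and the transcript AP002954.2 at 0.118. COL15A1 had a mean of 3.77 ± 0.139 in vector and 12.3 ± 0.329 in shVPS35 samples (SD, n = 3 per group). Nearest to DLX3 were SAMD11 at 0.106, the collagen receptor gene MRC2 at 0.152 and CTTNBP2, a gene for a partner of cortactin, at 0.166. SAMD11 shared the low vector sample 2, with 5.47, 4.41 and 5.38 in vector and 17.5, 23.7 and 24.2 in shVPS35 samples.

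DLX4 was nearest to TBC1D9, a TBC domain protein gene, at 0.0673, to the Wnt ligand gene WNT6 at 0.0910 and to GLUL, which encodes glutamine synthetase, at 0.0993. TBC1D9 had 1.13, 1.31 and 0.98 in vector and 4.09, 4.16 and 3.64 in shVPS35 samples. WNT6 is near only on the scale with the pseudocount, since it had 0.04, 0.12 and 0 in vector and 1.66, 2.09 and 1.25 in shVPS35 samples, a fold of 30.3 in the authors' deposited table against 2.76 for DLX4. The DLX genes were not each other's nearest genes. DLX4 took place 26 and DLX3 place 58 in the order for DLX2, and DLX2 took place 10 in the order for DLX3. DLX2 took place 49 in the order for DLX4. The neighbours on chromosome 17 had the largest distance among the 3 DLX genes, 0.504, with DLX3 at place 121 in the order for DLX4 and DLX4 at place 41 in the order for DLX3. For DLX3 that distance was below the median of 0.621 to the other genes that rose, and for DLX4 it was above the median of 0.290. Each distance includes the size of the rise, so it partly restates that, on this scale, DLX3 rose most and DLX4 least.

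**Figure D4:**
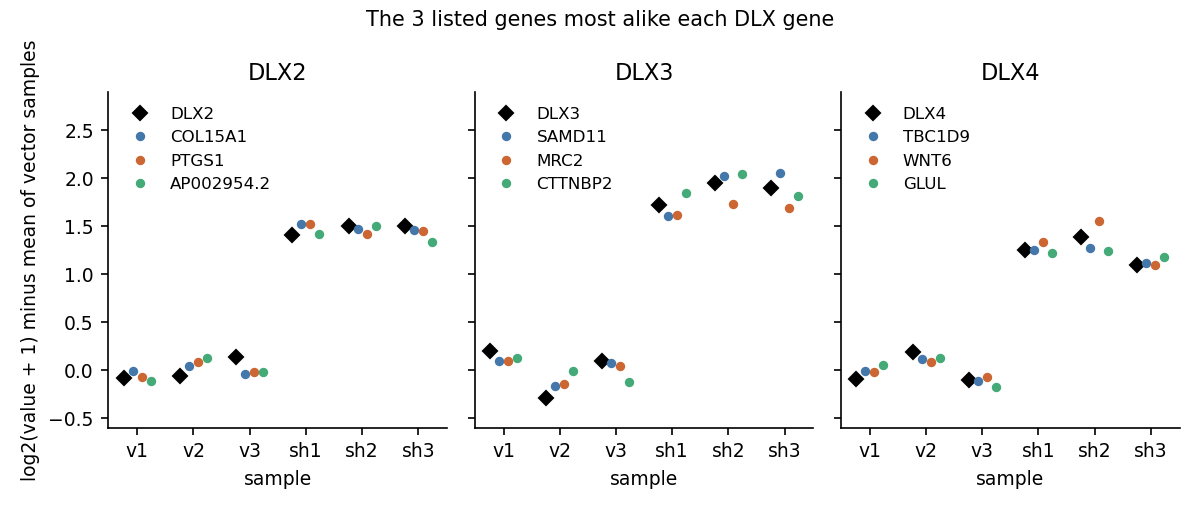
log2(value + 1) minus the mean of the vector samples (y axis) in each vector (v) and shVPS35 (sh) sample for each DLX gene (black diamonds) and the 3 listed genes most like it (coloured points). The nearest genes lie at distances of 0.0673 to 0.166 from their DLX gene.

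SIX2, HOXD11 and MEOX1, homeobox genes outside the DLX family, were also higher in shVPS35 cells. Of a list of 54 homeobox factors outside the DLX family, SIX2, a regulator of kidney and craniofacial progenitors, was listed and 53 were not. That is 1.85% of the list, where 2.65% of all genes tested were listed and 1.18% were called higher. HOXD11 and MEOX1 are not on that list, so this share leaves them out. SIX2 had 0.66, 0.48 and 0.55 in vector and 1.77, 1.56 and 1.72 in shVPS35 samples. HOXD11 and MEOX1 were picked by name after the values were seen, and their deposited descriptions hold the word homeobox. The listed genes were not searched for every homeobox gene, so nothing is read from the shared direction of those named. HOXD11, a limb and axial patterning gene, had means of 0.190 ± 0.0361 and 0.930 ± 0.316, and MEOX1, a somite gene, 0.130 ± 0.0721 and 0.710 ± 0.171 (SD, n = 3 per group).

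Of 31 genes of BMP and SMAD signalling, 4 were listed and all 4 were higher in shVPS35 cells, while 27 were not listed. Of all genes tested, 1.18% were called higher, and how many of the 31 were tested is unknown. No BMP ligand, BMP receptor or SMAD gene on the list was in the table. ID2, an inhibitor of basic helix-loop-helix factors and a common BMP target, had 3.43, 2.21 and 3.39 in vector and 12.6, 7.95 and 10.4 in shVPS35 samples. Sample 2 was lowest in both groups, whereas DLX4 was highest there. BAMBI, a decoy receptor, had means of 8.08 ± 0.240 and 19.1 ± 0.852, and ATOH8, a helix-loop-helix factor, 4.30 ± 0.414 and 18.5 ± 2.69 (SD, n = 3 per group). NOG encodes the secreted BMP antagonist noggin and had 0.10, 0.04 and 0.12 in vector and 0.66, 0.70 and 0.66 in shVPS35 samples. Over the 4, the median log2 change from the authors' deposited table was 1.94, against 1.50 for all genes that rose. This list was written with earlier results of these data known, so its count is no independent evidence of a direction.

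**Figure D5:**
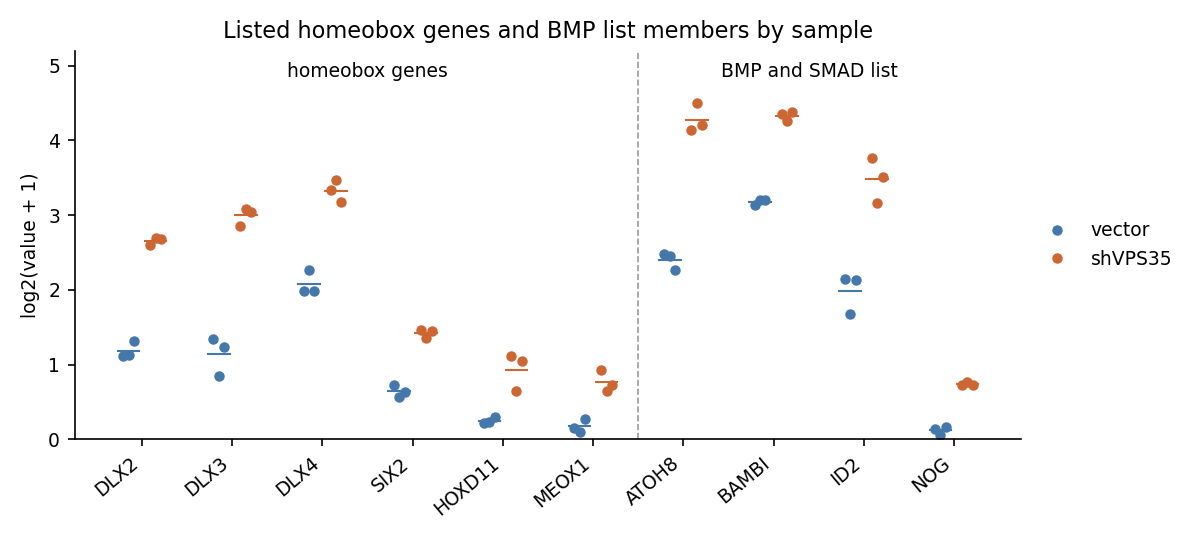
log2(value + 1) (y axis, starting at 0) of 6 listed homeobox genes and the 4 listed genes of the BMP and SMAD list, with vector samples in blue, shVPS35 samples in orange and a line at each group mean. Every shVPS35 point lies above every vector point of the same gene, as in 95.3% of the 190 listed genes that rose.

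The listed genes of tissues in which DLX factors are known to act went in both directions. Of all genes tested, 2.65% were listed. The lists were written with earlier results of these data known, so nothing is read from their counts. Of 30 genes of epidermal differentiation, KRT13, KRT15 and FLG were listed as lower and KRT6A as higher. KRT13, a keratin of mucosal epithelium, had means of 17.9 ± 1.37 in vector and 7.18 ± 0.841 in shVPS35 samples, and KRT15, a basal keratin, 9.02 ± 0.713 and 4.20 ± 0.462 (SD, n = 3 per group). KRT6A and the filaggrin gene FLG stayed below 1 in all 6 samples. Of 21 genes of bone and tooth formation, TWIST1, a mesenchymal helix-loop-helix factor, was higher, at 1.75 ± 0.563 and 4.04 ± 0.491. RUNX2, the master factor of bone formation, was lower, at 0.54, 2.07 and 0.48 in vector and 0.10, 0.08 and 0.21 in shVPS35 samples, with vector sample 2 far above the rest.

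The 2 listed genes of the 16 on the trophoblast list were lower, where 1.47% of all genes tested were called lower and 236 of the 426 listed genes fell. Nothing is read from a count this small. PPARG, a nuclear receptor of fat cells and placenta, had means of 22.9 ± 0.806 and 11.1 ± 1.50, and the pregnancy glycoprotein gene PSG4 had 1.61 ± 0.606 and 0.490 ± 0.115 (SD, n = 3 per group). Of 24 Wnt signalling genes, NOTUM was higher, and NKD2 and EPHB2 were listed as lower, where 2.65% of all genes tested were listed. Nothing is read from this count either. NOTUM, a secreted Wnt-inactivating enzyme gene, had 2.13, 2.05 and 2.21 in vector and 5.72, 5.50 and 5.64 in shVPS35 samples. For EPHB2 the groups overlapped. WNT6, named above, is not on that list.

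Markers of cell types were read beside the DLX genes, since the table holds only called genes. Of all genes tested, 2.65% were listed, and nothing is read from the marker counts. Of 12 gastric epithelial markers, PSCA, GKN1 and GKN2 were listed, and their summed values were 163 to 179 in vector and 68.1 to 75.6 in shVPS35 samples. The sum is mostly PSCA, with means of 160 in vector and 69.7 in shVPS35 samples. GKN1 had means of 4.42 and 0.81, and GKN2 6.37 and 2.14. The general epithelial markers EPCAM, KRT8, KRT18, KRT19 and CDH1 were not listed, so their levels are not analysed here. Of 5 fibroblast markers, DCN was listed as higher, with 1.48 ± 0.485 in vector and 4.19 ± 1.22 in shVPS35 samples (SD, n = 3 per group). LUM was listed as lower, with 1.17 ± 0.429 and 0.560 ± 0.373 and overlapping groups, and the sum of the 2 was 1.69 to 3.26 and 3.34 to 6.40. The endothelial marker CDH5 had 0.83 to 1.25 in vector and 0.42 to 0.66 in shVPS35 samples, and CD68, the listed gene of 5 leukocyte markers, 54.4 to 57.0 and 16.5 to 17.3. None of 4 neural markers was listed, and no listed marker was at 0 in any sample. The part of these markers in the DLX values was not tested.

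The RefSeq promoter table (GRCh38.p14), which gives 250 bases before and 50 after a gene's start, holds DLX2 of the 3 genes. Its promoter at chr2:172102851-172103150, minus strand, is shown as the sequence at the start of a gene whose transcript differed between the groups, with capitals for matches to the motifs named below.
DLX2: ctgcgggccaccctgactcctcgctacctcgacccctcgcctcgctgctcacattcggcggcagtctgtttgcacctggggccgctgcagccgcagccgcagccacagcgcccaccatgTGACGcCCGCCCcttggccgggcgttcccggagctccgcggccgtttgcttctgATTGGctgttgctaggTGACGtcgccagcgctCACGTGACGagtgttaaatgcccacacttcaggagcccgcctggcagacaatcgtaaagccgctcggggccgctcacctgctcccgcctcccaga
The window is rich in CpG, with 30 CpG dinucleotides against a median of 14 over 35116 promoters of the same length, and 77.6% of promoters had fewer. Both strands were searched. An E-box CACGTG, the site of helix-loop-helix leucine zipper factors, begins at -45 from the start and occurs in 7.26% of all promoters. The core TGACG of the cyclic AMP response element begins at -131, -61 and -41, the last overlapping the E-box, and 24.6% of promoters hold it. A CCAAT box lies at -77 (34.6% of promoters) and a GC box GGGCGG at -125 (45.0%), each on the opposite strand. The window held no TATA box TATAAA, which 11.5% of promoters hold. Nor did it hold the homeodomain core TAATT (24.8% of promoters) or the AP-1 site TGANTCA (7.71%). A match describes the sequence and is not evidence of binding.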

How the data were processed

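RNA was sequenced from 3 vector and 3 shVPS35 samples of MKN28 cells, grouped by sample title. The submitters' processing notes name fastp, HISAT, RSEM and GRCh38.p13, without versions or roles. Per the file headers, the authors' deposited table gives an expression signal per gene and sample with no unit, the ratio of shVPS35 over vector, its log2, and a p-value and adjusted p-value from a test not given in the sources used here. It lists 426 genes, all past limits of 0.05 on adjusted p and 1 on the size of the log2 fold change. A total of 16063 tested genes was worked out from p and adjusted p, with 387 of 422 ranks whole within 0.01. Depth is unknown, so precision was judged from the spread between samples, which may be technical in part.

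Means, SDs and log2(value + 1) differences were computed with Python 3.11.15, numpy 2.4.6 and pandas 2.3.3. No test was made, because the genes come from calls on the same contrast. Named genes were VPS35, the DLX genes, the 3 nearest genes to each, and listed members of fixed gene lists, with values for up to 4 members a list. HOXD11 and MEOX1 were added by name. The members and lists were chosen with earlier results of these data known. Positions come from GENCODE 29, which matched 421 of 426 identifiers. The coding stretch was found by ungapped comparison of DLX3 with DLX2. Some items are not reported here. Alternatives were pseudocounts of 0.1 and 5, other filters on low values, scaling to the listed total, median centring and leaving out each sample.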

Additional observations from a re-analysis of the deposited data

How the results depend on the processing

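DLX2, DLX3 and DLX4 stayed higher in shVPS35 cells under each of the alternatives run. With a pseudocount of 0.1 the log2 differences were 1.98 for DLX2, 2.46 for DLX3 and 1.46 for DLX4, and with 5 they were 0.72, 0.95 and 0.77. A smaller pseudocount gives a larger difference by construction, since the values are low. Median centring moved DLX2 to 1.61. Leaving out single samples gave 1.43 to 1.54 for DLX2, 1.71 to 1.96 for DLX3 and 1.18 to 1.34 for DLX4. The place among listed genes that rose fell with a pseudocount of 5 to 49 for DLX2 and 23 for DLX3. Over the samples left out it ranged from 13 to 24 for DLX2, 4 to 10 for DLX3 and 31 to 50 for DLX4, with DLX2 at 13 without vector sample 3 and DLX3 at 4 and 5 without vector samples 1 and 3. The other 31 places and 26 differences moved by less than 1.5 times or 1 SD. Pairing same-numbered samples as a replicate block leaves the mean differences at 1.47, 1.86 and 1.25 by construction, with SEs of 0.06 for DLX2, 0.21 for DLX3 and 0.05 for DLX4. The labels do not say what the numbers stand for. Deviations of same-numbered samples did not go together (r across 316 genes of -0.03, -0.04 and 0.05). With 3 samples per group and only called genes, this cannot settle whether same-numbered samples were handled together. The table holds only called genes and no counts, which limits every statement on genes outside it.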
